A study of Mus musculus with 35 samples.

Results

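The immunoglobulin gene segments of the mouse were followed across 6 tissues. The genes were chosen by their annotated biotype alone, as variable (V), diversity (D), joining (J) or constant (C) segments, which gave 264 of the 55356 genes in the deposited annotation (218 V, 19 D, 14 J and 13 C). Tissues of adult C57BL/6J mice were profiled by RNA-seq in 29 libraries, from brain, cerebellum, heart and colon of both sexes, ovary and testis. Each group of one tissue and sex had 3 libraries, except male heart with 2, and the animals carried no treatment or engineered allele. Ribosomal RNA was removed and the libraries were strand-specific. Replicates are libraries labelled as separate, and where several came from one animal the P-values below measure only the spread between libraries. Long-read cDNA sequencing entered only through the annotation, and none of its transcript models covered a member.

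B cells build an antibody gene by joining one V, one D and one J segment for the heavy chain, and one V and one J segment for a kappa or lambda light chain. Splicing then links the joined exon to a constant region, which sets the class: *Ighm* gives IgM, *Ighd* IgD, *Igha* IgA, *Ighe* IgE and the *Ighg* genes IgG. In the gut, plasma cells secrete IgA that is joined by the J chain (*Jchain*) and carried across the epithelium by the receptor encoded by *Pigr*. C57BL/6J mice carry *Ighg2c*, and secreted antibody is made in plasma cells, whereas naive B cells carry IgM and IgD on their surface.

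On genome build GRCm38, the heavy locus holds 144 members on chromosome 12 (113254830 to 116000461), the kappa locus 108 on chromosome 6 (67555497 to 70726966) and the lambda locus 12 on chromosome 16 (19061618 to 19260859). Of the 264 members, 180 passed the filter on low counts and were tested, 56 had counts but did not pass, and 28 had no count. Only 33 would have passed without the 6 colon libraries, so most members entered the tests through colon, where they are high. Library totals ran from 11742417 to 36194255 counts, and those of the colon libraries from 11742417 to 18890658. Of 18 genes fixed as tissue checks, 16 were higher in every library of their tissue than in any other library, and the exceptions, *Snap25* and *Mbp*, are shared by brain and cerebellum. A pair of libraries stood apart in the immunoglobulin genes, female heart replicate 3 and male colon replicate 1, and their values are named beside the results they carry.

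Colon held most of the immunoglobulin RNA. Members took 0.128% to 0.318% of the counts of a colon library, and 82.3% of all member counts fell in colon. Outside colon and female heart replicate 3, the highest share was 0.00938%, in an ovary library. *Igha* and *Igkc*, the constant regions of IgA and of the kappa chain, together took 60.6% of the member counts in colon. In bulk tissue, fewer cells of a type and less RNA per cell cannot be told apart.

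The constant-region level was summed over the 13 C genes in FPKM, which is counts scaled to the library total (CPM) and to the kilobases of exon. In colon the sum had a lowest value of 799.5, a median of 1320 and a highest of 2034 FPKM (mean 1328 ± 436, SD, n = 6). Ovary followed with 33.2, 43.3 and 70.2 FPKM, and testis had the lowest mean, with 10.2 to 11.3 FPKM (10.7 ± 0.593, SD, n = 3). Brain (17.04 ± 1.52, n = 6), cerebellum (14.9 ± 5.43, n = 6) and the 4 other heart libraries (19.9 ± 4.53) had means between those of ovary and testis, and their ranges overlapped. The lowest library was a cerebellum library, at 8.45 FPKM. Female heart replicate 3 had 799 FPKM, within 1 FPKM of the lowest colon library. On the log2(FPKM + 0.1) scale, colon was 5.91 above the other 23 libraries, with an exact two-sided permutation P of 2.11e-06, the smallest that the 475020 choices of 6 libraries can give.

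**Figure D1:**
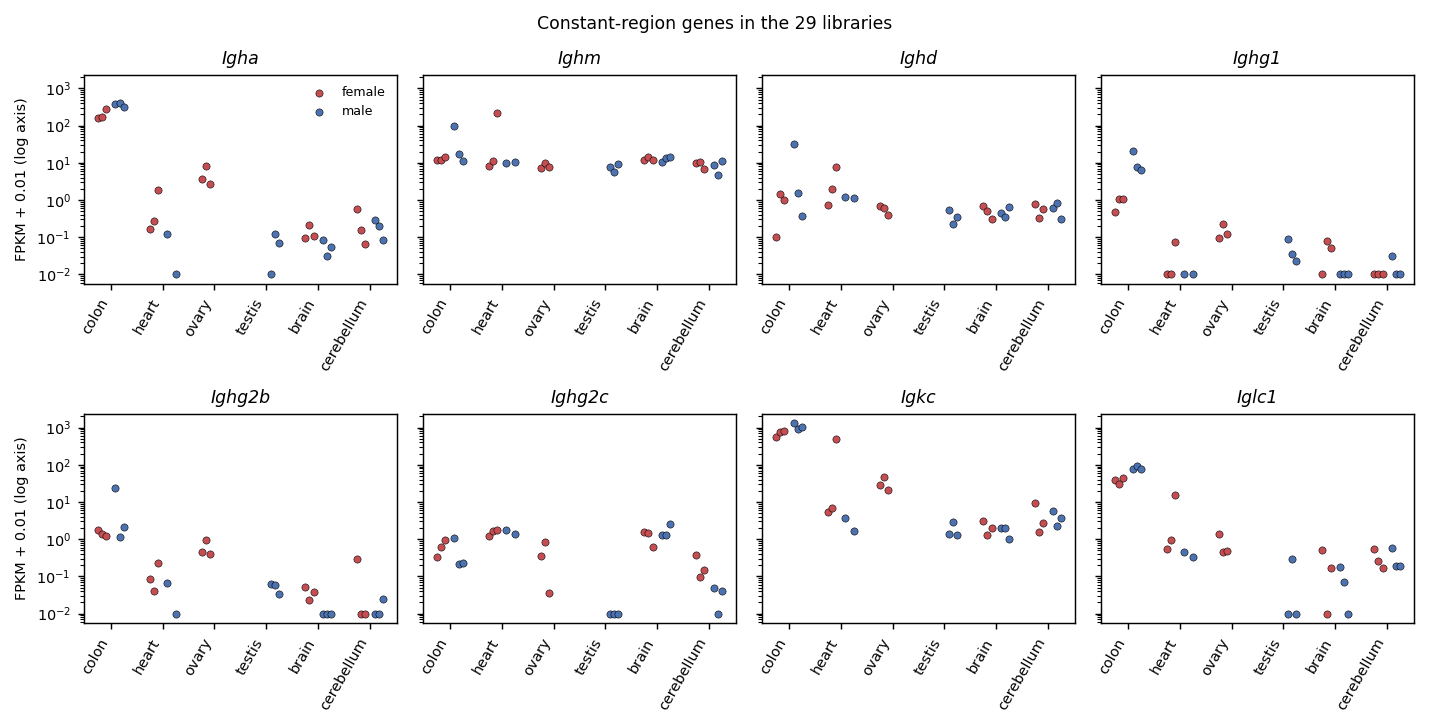
Level of 8 constant-region genes in each of the 29 libraries, in FPKM + 0.01 on a log axis, by tissue and sex, with 1 point for each library. *Igha*, *Igkc* and *Iglc1* were separate between colon and every other tissue, whereas *Ighm* lay between 4.75 and 17.4 FPKM in every library apart from male colon replicate 1 and female heart replicate 3.

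*Igha* was the most colon-restricted of the abundant classes. It was at 155, 168 and 277 FPKM in female colon and at 380, 397 and 312 FPKM in male colon. The next highest library was an ovary library at 8.33 FPKM, and the groups did not overlap. In the fit across all genes, the log2 fold change of colon over the mean of the other 5 tissues was 9.94 (SE 0.34, edgeR adjusted P = 8.66e-19).

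*Igkc* was at 561, 761 and 827 FPKM in female colon and at 1303, 910 and 1050 FPKM in male colon. The only other library above 50 FPKM was female heart replicate 3, at 501 FPKM. The log2 fold change was 7.0 (SE 0.48, edgeR adjusted P = 1.5e-12). The lambda constant genes were less abundant. *Iglc1* had a colon mean of 59.8 ± 25.2 FPKM, *Iglc2* 16.8 ± 10.9 and *Iglc3* 20.7 ± 17.6 (SD, n = 6), and their log2 fold changes were 7.19, 5.34 and 5.29. The exons of *Iglc2* overlap *Iglj2* on the same strand, and those of *Iglc3* overlap *2010309G21Rik* on the opposite strand, so reads there may be split or shared. *Iglc4* had 7 counts in all libraries together and was not tested.

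Among the IgG genes, *Ighg1* had a colon mean of 6.18 ± 7.63 FPKM and *Ighg2b* of 5.18 ± 9.01 FPKM, with log2 fold changes of 7.42 and 6.00. Male colon replicate 1 was the highest library for both, at 20.4 and 23.6 FPKM. Without it the means were 3.33 ± 3.44 and 1.504 ± 0.422 FPKM (n = 5), and the log2 fold changes 7.10 and 4.82. *Ighg2c* ran the other way in level. It was at 0.201 to 1.04 FPKM in colon, below every heart library (1.18 to 1.79 FPKM), with brain at 0.609 to 2.53 FPKM. Its fitted difference from the mean of the other tissues was 1.45 (SE 0.51, edgeR adjusted P = 0.0164), and that mean includes testis, where it had no count, and cerebellum, with at most 12 counts in a library. *Ighe*, the IgE gene, had 55 counts in colon, in 6 of 6 libraries, and no count in the other 23 libraries.

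*Ighm* and *Ighd* did not share the colon pattern. *Ighm* was at 12.2, 11.6 and 13.9 FPKM in female colon and at 96.4, 17.4 and 11.4 FPKM in male colon, against 10.6 to 14.6 FPKM in brain. Its log2 fold change was 0.87 (SE 0.37, edgeR adjusted P = 0.0437). Without male colon replicate 1 the log2 fold change was 0.15 (adjusted P = 0.861). *Ighd* changed in the same way, from 2.12 (adjusted P = 0.000584) to 0.42 without that library (adjusted P = 0.443). *Ighg3* went from 3.92 (adjusted P = 0.0322) to 1.96 (0.0859) and *Ighg2c* from 1.45 to 0.88 (0.146), and both calls were lost.

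In brain, *Ighm* was counted with little light chain. Its counts in the 6 brain libraries had a lowest value of 512, a median of 639 and a highest of 911, whereas *Igkc* had 13, 28 and 43. The ratio of light to heavy constant FPKM was 0.0561 to 0.313 in brain and 2.40 to 4.41 in colon. Testis (331 to 550 *Ighm* and 21 to 48 *Igkc* counts), cerebellum (212 to 518 and 21 to 124) and the heart libraries other than female replicate 3 (367 to 533 and 18 to 94) also had more *Ighm* than *Igkc* counts. Their ratios of light to heavy constant FPKM reached higher than in brain, at 0.136 to 0.645 in testis, 0.173 to 0.946 in cerebellum and 0.246 to 0.753 in those heart libraries. V segments had 19 to 52 counts in a brain library and 6225 to 18966 in a colon library. The annotation holds no other gene on the exons of *Ighm* on either strand.

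In the fit, all 12 constant genes tested, 153 of 160 V genes and 8 of 8 J genes were called higher in colon. That was 173 of 180 members in all, and 0 were lower. The calls include *Ighg2c*, whose colon level lay below every heart library. They also include *Ighm* and *Ighd*, whose calls were lost without male colon replicate 1. Over all genes tested, 28.2% were higher and 31.1% lower (59.3% in either direction). The median log2 fold change was 6.95 over the members tested and −0.38 over all genes tested. These counts describe members that mostly passed the filter because of colon. With male colon replicate 1 left out, 163 of 174 members and 8 of 12 constant genes were higher.

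IgA was the largest class in all 6 colon libraries, at 91.1% or more in 5 of them. IgA made 91.1%, 91.3% and 93.7% of the heavy constant FPKM in female colon and 67.8%, 93.3% and 93.8% in male colon. IgM was next, at 3.42% to 7.15% in those 5 libraries. Male colon replicate 1 had 17.2% IgM, 5.57% IgD and 9.37% IgG. In ovary, IgA was 29.6%, 39.9% and 24.1% and IgM 57.7%, 47.3% and 67.7%. Brain, cerebellum, heart and testis libraries were 74.3% to 96.4% IgM. Kappa made 88.4% to 93.6% of the light constant FPKM in colon.

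**Figure D2:**
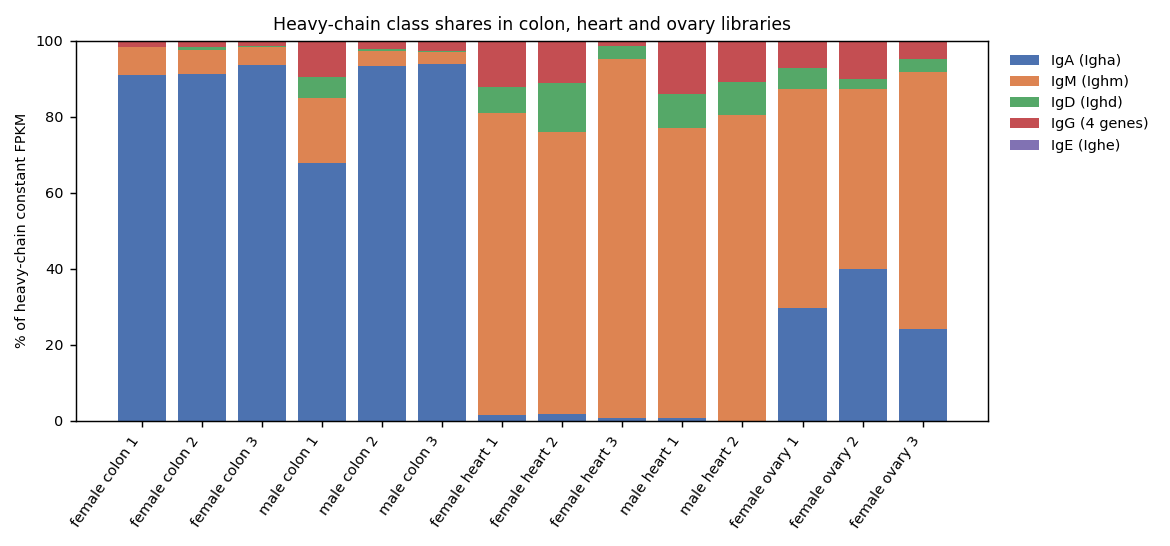
Share of each heavy-chain class, as a percentage of the summed heavy-chain constant FPKM of a library, with 1 bar for each colon, heart and ovary library. IgA fills over 91% of 5 colon bars and 67.8% of male colon replicate 1, and IgM fills 94.4% of female heart replicate 3.

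Male and female colon were then compared. The summed constant level was 799.5, 997 and 1190 FPKM in females and 1449, 1495 and 2034 FPKM in males, so the sexes did not overlap. The difference was 0.74 on the log2 scale (exact permutation P = 0.1, the smallest that 3 against 3 can give, adjusted P = 0.3 over 3 measures). The IgA share was 92.0% in females and 84.9% in males on average (exact permutation P = 0.9, adjusted P = 0.9). The kappa share was 91.8% and 89.2% (exact permutation P = 0.2, adjusted P = 0.3). Without male colon replicate 1, the mean IgA share was 1.49 percentage points higher in males.

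Per gene, 3 members were higher in male colon and 0 lower, where 0.0903% of all genes tested were higher and 0.234% lower (0.324% in either direction). *Ighg1* had 14, 46 and 39 counts in female colon and 1001, 371 and 225 in male colon (log2 fold change 3.56, SE 0.60, edgeR adjusted P = 0.00649). *Igkv7-33* had 0, 15 and 7 counts in females and 225, 211 and 331 in males (4.88, SE 0.84, adjusted P = 0.0208). *Igkv4-58* had 0, 2 and 7 counts in females and 214, 470 and 52 in males (5.86, SE 1.04, adjusted P = 0.0254). The sexes did not overlap in any of the 3 genes, but these were picked by the test. The share of all genes tested that separate in this way is not given here. Without male colon replicate 1 none of the 3 passed, although the log2 fold changes were still 2.93 for *Ighg1* (adjusted P = 0.103), 5.08 for *Igkv7-33* (0.0667) and 6.0 for *Igkv4-58* (0.0769). *Igkv7-33* also lost its call without female colon replicate 3, male replicate 2 or male replicate 3 (adjusted P = 0.0789, 0.0557 and 0.0643), and *Igkv4-58* without female replicate 1, female replicate 2 or male replicate 2 (0.0808, 0.131 and 0.15). By DESeq2 the log2 fold change was 4.96 for *Igkv7-33* (adjusted P = 0.713) and 5.92 for *Igkv4-58* (0.778). For a library code block, the codes of the labels were grouped here by leading digit, with single-digit codes together. The labels do not give this grouping. No group of codes holds both sexes, so the block cannot set code apart from sex. With it no member passed the test, and the log2 fold changes were 3.28 for *Ighg1*, 4.06 for *Igkv7-33* and 5.07 for *Igkv4-58* (adjusted P = 1.0 for each). In a separate fit with counts summed by class and chain, 0 of 8 sums passed. As a limit of this comparison, female colon replicates 1 and 3 shared V segment use beyond any other pair, as described below.

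The members varied more between colon libraries than most genes. The SD of log2 CPM between libraries of one sex had a median of 1.12 over the 180 members tested and 0.379 over all 29911 genes tested. Of the members, 111 (61.7%) lay above the 90th percentile of all genes, at 0.974. *Igkc*, *Iglc1* and *Igha* were not among them. *Igkc* had an SD of 0.286, *Iglc1* 0.242 and *Igha* 0.362, and 35.7%, 28.0% and 47.8% of all genes lay below them. *Ighd* (2.60), *Ighg3* (2.33), *Ighg2b* (1.59), *Ighe* (1.12) and *Ighm* (1.11) lay in the upper tail. From the lowest to the highest colon library, *Igkc* spanned 2.32-fold, *Igha* 2.56-fold, *Ighm* 8.48-fold, *Ighg2b* 21.2-fold and *Ighg1* 44.4-fold. *Ighd* spanned 348-fold, but its lowest library had 2 counts. Without male colon replicate 1, *Ighm* spanned 1.53-fold (SD 0.286), *Ighg2b* 1.89-fold (0.404), *Ighg1* 16.6-fold (0.585) and *Ighd* 16.9-fold (1.76), and the SD of *Ighg3* was 1.05. *Igha* and *Igkc* then had SDs of 0.418 and 0.30. Among genes with at least 1 CPM on average in colon, a limit chosen after seeing the data, the medians were 1.05 for members and 0.316 for all genes.

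**Figure D3:**
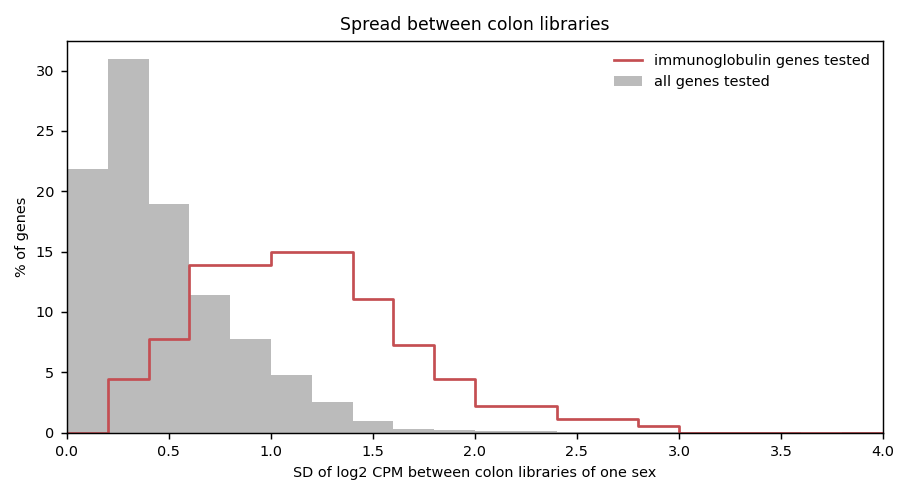
Distribution of the SD of log2 CPM between colon libraries of one sex, in percent of genes for each interval of the SD, with grey bars for the 29911 genes tested and a red line for the 180 immunoglobulin genes tested (values past the axis are in the last interval). The red line peaks to the right of the bars, with medians of 1.12 and 0.379.

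Male colon replicate 1 was the highest colon library for *Ighm*, *Ighd*, *Ighg1*, *Ighg2b*, *Ighg2c* and *Ighg3*. B cell, follicle and other immune genes moved with them. The 16 genes of the B cell and receptor signalling list summed to 516 CPM there and to 94.4 to 191 CPM in the other 5 colon libraries. The lymphoid follicle list, with 6 of 8 genes measured, summed to 97.6 CPM against 1.96 to 8.56 CPM. It shares *Cr2* and *Fcer2a* with the B cell list, so the sums of these lists are not separate. These genes were at 43.4 and 16.3 CPM in male colon replicate 1. *Ms4a1*, the CD20 antigen of B cells, was at 40.8 CPM against 0.511 to 2.50 CPM, and *Pax5*, a B cell transcription factor, at 46.2 CPM against 0 to 0.798 CPM. The T cell list (74.8 CPM against 24.1 to 37.5 CPM), the macrophage list (748 against 335 to 607 CPM) and the Fc receptor list (260 against 117 to 207 CPM) were also highest there. The plasma cell and IgA secretion list was not highest in this library (2284 CPM against 1450 to 2310 CPM). Smooth muscle genes were highest in this library too (25820 CPM against 9374 to 18030 CPM) and colon epithelium genes lowest (17180 CPM against 24520 to 30700 CPM). The part of these cells in the class shares was not tested.

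**Figure D4:**
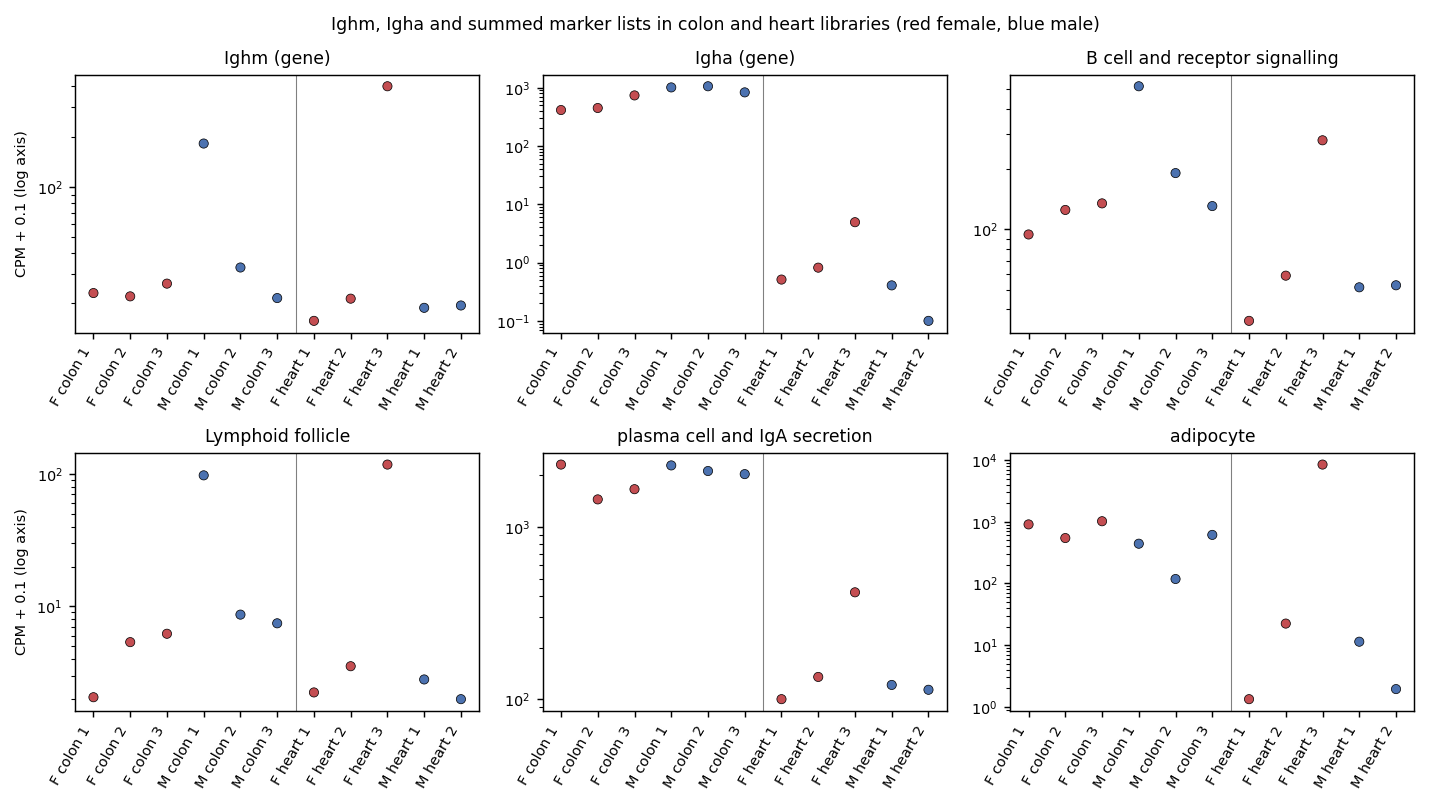
*Ighm*, *Igha* and 4 summed marker lists in the 6 colon and 5 heart libraries, in CPM + 0.1 on a log axis, with 1 point for each library. Male colon replicate 1 and female heart replicate 3 are high for *Ighm*, for B cell genes and for lymphoid follicle genes, whereas adipocyte genes are high among heart libraries only in female heart replicate 3.

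Female heart replicate 3 held 24750 member counts, and the other 4 heart libraries held 534 to 1000. *Ighm* had 9627 counts in it against 367 to 533, and *Igkc* had 6404 against 18 to 94. Its class share was 94.4% IgM, 3.47% IgD and 0.804% IgA. The B cell list summed to 278 CPM against 35.0 to 58.8 CPM in the other heart libraries, and the follicle list to 118 CPM against 1.89 to 3.43 CPM. The macrophage list (741 against 276 to 443 CPM), the T cell list (43.3 against 7.45 to 21.5 CPM) and the Fc receptor list (214 against 94.3 to 127 CPM) were also highest in it, whereas smooth muscle (1709 against 2871 to 3575 CPM) and red cell genes (4679 against 5948 to 16080 CPM) were lowest. *Cxcl13*, a chemokine that attracts B cells, was at 85.8 CPM against at most 0.319 CPM, and *Jchain* at 97.1 CPM against at most 0.798 CPM. A list of 8 adipocyte genes, chosen after their values were seen, summed to 8462 CPM in this library, to 1.23 to 22.3 CPM in the other heart libraries and to 118 to 1021 CPM in colon. The part of adipose or lymphoid tissue in its immunoglobulin level was not tested.

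Heart was compared with brain and cerebellum. Of the 180 members tested, 27 were higher in heart and 0 lower. Over all genes tested, 24.9% were higher and 35.2% lower (60.1% in either direction), larger shares than those of the members. In none of the 27 were the groups separate, and 7 had no count in brain and cerebellum. They included 7 constant genes. *Igkc* had 70, 94, 6404, 38 and 18 counts in heart, in the order of the female and then the male replicates, against 13 to 124 counts in brain and cerebellum (log2 fold change 3.15, SE 0.70, edgeR adjusted P = 0.000341). Without female heart replicate 3 its log2 fold change was 1.13 (adjusted P = 0.011). Without female heart replicate 3, 11 members and 6 constant genes were higher, and *Ighm* lost its call (0.55, adjusted P = 0.136). Without male heart replicate 1, 12 members were higher, and *Iglc2* lost its call (adjusted P = 0.201). *Ighg2c* differed by 2.76 (SE 0.47, edgeR adjusted P = 1.78e-05) and by 2.82 without female heart replicate 3. Its level in heart (1.55 ± 0.263 FPKM) overlapped that in brain (1.44 ± 0.624 FPKM), and cerebellum was low (0.112 ± 0.138 FPKM). *Iglc3* differed by 4.18 (SE 0.64, adjusted P = 2.98e-06) and by 3.19 without that library.

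Ovary and testis differed in class. In ovary, *Igha* was counted 175, 553 and 205 times and in testis 0, 9 and 5 times (log2 fold change 5.73, SE 0.77, edgeR adjusted P = 5.18e-07). *Igkc* had 278, 634 and 313 counts in ovary and 21, 48 and 21 in testis (3.48, SE 0.99, adjusted P = 0.00332). *Ighg2b* had 113 counts in ovary and 10 in testis (3.15, SE 1.13, adjusted P = 0.0176). In all, 17 of the 180 members tested were higher in ovary and 3 lower. Over all genes tested, 26.5% were higher and 37.8% lower (64.3% in either direction), larger shares than those of the members. The number higher was 9 without testis replicate 3, 10 without testis replicate 1, and 5 with the library code block described above. No group of that block holds both ovary and testis, so it cannot set code apart from gonad. Of these 20 calls, 16 had no count in one of the gonads, and 52 of the 180 members had no count in either.

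The 3 members higher in testis were V segments. *Ighv1-84* (chromosome 12, 115980702 to 115981134, minus strand) had 45, 56 and 50 counts in testis, which was 59.2%, 52.8% and 48.1% of the heavy V counts there. *Igkv4-63* (chromosome 6, 69377944 to 69378472, minus strand) had 58, 63 and 39 counts, or 66.7%, 61.8% and 48.8% of the kappa V counts. Both had no count in ovary (edgeR adjusted P = 0.000352 and 0.000666). Colon libraries held 0 to 27 counts of *Ighv1-84* and 2 to 119 of *Igkv4-63*. *Ighv1-56* had 9 counts in testis and none in ovary (adjusted P = 0.0105), and its call was lost by DESeq2 and with that block. Their last 45 bases are shown because the codon of the conserved cysteine, here in capitals, lies near the end of a V segment, before the junction with D or J (GENCODE transcripts on GRCm38, 5′ to 3′):
Ighv1-84: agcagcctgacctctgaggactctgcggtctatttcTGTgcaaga
Igkv4-63: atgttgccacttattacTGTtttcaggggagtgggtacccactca
The tyrosine, tyrosine or phenylalanine, cysteine codons were found in the last 45 bases of 108 of 113 heavy, 99 of 102 kappa and 2 of 3 lambda V genes.

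V segment use was broad in colon. A colon library held counts on 76 to 90 of the 113 heavy V genes and on 76 to 91 of the 102 kappa V genes. The most counted heavy V gene took 6.33% to 15.6% of the heavy V counts, and the most counted kappa V gene 7.31% to 9.97%. The effective number of genes (inverse Simpson index) was 17 to 34.7 for heavy and 24.8 to 33.4 for kappa, with the highest value of both in male colon replicate 1, which also had the most V counts. In lambda, *Iglv1* took 69.3% to 93.3% of the counts, and *Iglv2* and *Iglv3* the rest. By family, *Ighv1*, with 53 genes, made 48.8 ± 4.30% of heavy V counts, and *Igkv4*, with 26 genes, 16.4 ± 3.91% of kappa V counts (SD, n = 6).

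The leading segments differed between libraries. *Ighv1-81* was the most counted heavy V gene in all 3 female libraries (15.6%, 13.9% and 12.2%) and took 2.82%, 1.69% and 1.6% in males. *Ighv1-26* led in male replicates 2 and 3 (7.94% and 11.5%) and *Ighv7-3* in male replicate 1 (6.33%). The log2 fold change of male over female colon was −2.16 for *Ighv1-81* (SE 0.55, edgeR adjusted P = 0.147) and 0.88 for *Ighv1-26* (SE 0.70, adjusted P = 0.78), so neither passed the test. *Ighv3-6* was the steadiest of the leading heavy genes, at 12.0 to 16.9 CPM, 1.40-fold from lowest to highest. Among kappa genes a different segment led in each of the 6 libraries: *Igkv1-117*, *Igkv1-135* and *Igkv6-23* in female replicates 1 to 3, and *Igkv5-43*, *Igkv8-30* and *Igkv19-93* in male replicates 1 to 3. *Igkv19-93* spanned 27.7-fold, from 1.17 to 32.5 CPM. The ends of the leading segments are shown, with the cysteine codon in capitals:
Ighv1-81: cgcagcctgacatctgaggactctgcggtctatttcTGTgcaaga
Ighv1-26: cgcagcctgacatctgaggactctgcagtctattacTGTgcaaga
Ighv3-6: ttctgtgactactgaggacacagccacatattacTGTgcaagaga
Igkv1-117: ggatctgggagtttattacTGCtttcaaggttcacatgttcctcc
Igkv19-93: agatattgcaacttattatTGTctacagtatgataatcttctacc
Iglv1: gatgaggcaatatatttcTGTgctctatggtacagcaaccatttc

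**Figure D5:**
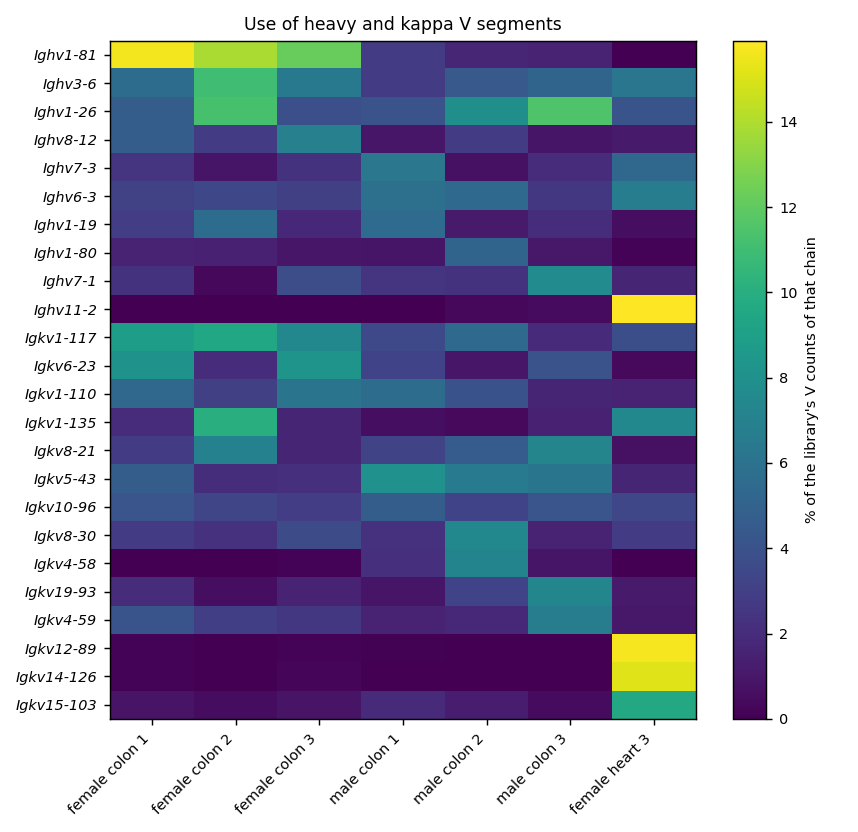
Share of heavy (upper rows) and kappa (lower rows) V counts taken by each V gene that was among the 3 most counted of a library, in the 6 colon libraries and female heart replicate 3, with colour for percent. *Ighv1-81* is bright in the 3 female colon columns, and *Ighv11-2*, *Igkv12-89* and *Igkv14-126* take 15.9%, 15.7% and 15.1% in female heart replicate 3 and under 0.5% in each colon library.

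Female colon replicates 1 and 3 used V segments alike. Shared use, the sum over genes of the smaller of both shares, was 83.5% for heavy and 80.9% for kappa segments in this pair. The other 14 pairs of colon libraries reached 50.3% to 65.1% for heavy and 47.9% to 65.5% for kappa. The labels give these libraries the codes 49 and 44, and 14 to female replicate 2. Whether the first pair came from one animal, and what the codes mark, is not stated. These values are descriptions.

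Some V segments were used far more in female heart replicate 3 than in colon. Over all segments, its shared use with the colon libraries was 42.2% to 51.9% for heavy, which overlaps the range of female with male colon libraries (50.3% to 56.9%), and 37.4% to 44.8% for kappa, below every pair of colon libraries. *Ighv11-2* took 15.9% of its heavy V counts (292 counts) and 0% to 0.481% in colon, and *Ighv12-3* took 3.54% and 0% to 0.113%. *Igkv12-89* took 15.7% and *Igkv14-126* 15.1% of its kappa V counts, against at most 0.178% and 0.290% in colon. *Iglv1* and *Iglv2* were near equal in it (44.7% and 42.5% of lambda V counts). As background, *Ighv11-2* and *Ighv12-3* are known from B-1 cells, a B cell type of the body cavities, and *Igkv14-126* is a known light-chain partner of *Ighv11-2*. The other heart libraries had no count of *Ighv11-2*, *Ighv12-3* or *Igkv14-126*. The ends of 3 of these segments read:
Ighv11-2: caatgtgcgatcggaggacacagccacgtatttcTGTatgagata
Ighv12-3: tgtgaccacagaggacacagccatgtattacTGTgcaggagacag
Igkv14-126: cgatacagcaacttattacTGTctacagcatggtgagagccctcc

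J and D segments held few counts. The 14 J genes had 785 counts in all libraries, 592 of them in colon, and the 19 D genes had 21, all in colon. The segments are short, with 38 to 54 bases shown for the J genes below and 10 to 29 exon bases for the D genes. *Igkj2* (152 counts) and *Ighj4* (114) were the most counted J genes, and *Ighd1-1* (12) and *Gm37327* (4) the most counted D genes. J segments carry the codons for tryptophan (heavy) or phenylalanine (light), glycine, any residue and glycine, searched on the coding strand as TGGGGNNNNGG and as TTCGGNNNNGG or TTTGGNNNNGG and shown in capitals:
Ighj2: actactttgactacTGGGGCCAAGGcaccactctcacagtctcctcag
Ighj4: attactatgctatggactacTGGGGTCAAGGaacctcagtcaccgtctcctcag
Igkj1: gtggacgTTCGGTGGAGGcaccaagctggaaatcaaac
Igkj2: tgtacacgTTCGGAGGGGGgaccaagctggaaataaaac
Igkj3: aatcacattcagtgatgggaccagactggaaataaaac
Ighd1-1: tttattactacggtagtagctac
These letters were found in 4 of 4 heavy, 4 of 5 kappa and 4 of 5 lambda J genes. *Igkj3*, which lacked them, still had 111 counts, 86 in colon.

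Genes of antibody secretion were read beside the members. Of the 14 genes of the plasma cell and IgA secretion list, 11 were higher and 1 lower in colon than in the other tissues, where 28.2% of all genes tested were higher and 31.1% lower, with a median log2 fold change of 2.40 against −0.38 over all genes. *Jchain* was at 169 to 378 CPM in colon (log2 fold change 8.10, edgeR adjusted P = 1.92e-13) and *Pigr* at 945 to 1630 CPM (13.24, adjusted P = 1.09e-21). *Prdm1*, a factor of plasma cell identity, differed by 5.33 (adjusted P = 2.59e-21). The lower gene of this list was *Pim2* (−1.09, adjusted P = 2.75e-06). *Derl3* (−0.61, adjusted P = 0.0656) and *Fkbp11* (−0.13, adjusted P = 0.847) were not called. In the B cell list 11 of 16 were higher and 1 lower, in the Fc receptor list 6 of 8 and 0, in the T cell list 8 of 8 and 0, in the macrophage list 6 of 8 and 0, and in the follicle list 4 of 6 and 0. All 8 colon epithelium, all 8 smooth muscle and all 7 tested adipocyte genes (the list chosen after its values were seen) were higher in colon, and all 5 red cell genes were lower. Without male colon replicate 1, the B cell count fell to 3 of 16 higher and 2 lower, where 26.7% of all genes were higher, and the follicle count to 3 of 6, whereas 11 of 14 plasma cell genes were still higher and 2 lower. Between male and female colon, 0 genes of these lists passed the test. In heart against brain and cerebellum, where 24.9% of all genes were higher and 35.2% lower, 10 of 14 plasma cell, 11 of 16 B cell, 7 of 8 Fc receptor, 5 of 8 T cell, 8 of 8 macrophage, 2 of 6 follicle, 2 of 8 colon epithelium, 6 of 8 smooth muscle, 5 of 5 red cell and 6 of 7 adipocyte genes were higher. Lower in heart were 2 plasma cell, 1 B cell, 1 follicle and 3 colon epithelium genes, and 0 of the other lists named here. Without female heart replicate 3, the plasma cell count was 8 of 14 and the B cell count 6 of 16. In ovary against testis, where 26.5% of all genes were higher and 37.8% lower, 6 of 14 plasma cell genes were higher and 1 lower. In the B cell list 4 of 16 were higher and 4 lower, which is not above those shares. The counts higher and lower were 5 and 2 of 8 for Fc receptors, 4 and 1 of 8 for T cells, 2 and 1 of 8 for macrophages, 1 and 3 of 6 for the follicle list, 7 and 0 of 8 for smooth muscle, 3 and 1 of 8 for colon epithelium, 0 and 1 of 5 for red cells and 0 and 0 of 7 for adipocytes.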

How the data were processed

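For each gene of a combined Iso-seq and ENSEMBL annotation on GRCm38, the authors deposited raw read counts, and only uniquely mapped reads were retained. The submitters' notes name HISAT2 2.0.5 and featureCounts 1.6.3, and whether strand was used in counting is not given in the sources used here. The annotation's deposited coordinates served as other values, for gene lengths and loci. In windows of 100 bases, the C genes were unique among immunoglobulin transcripts, as were 75 of 113 heavy and 56 of 102 kappa V genes over their whole length, so counts of the others can be incomplete.

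CPM used library totals, and FPKM the union of exons. edgeR 4.0.16 (quasi-likelihood, TMM, filter by group, 1 fit over 29 libraries and 10 groups) tested 29911 genes, with Benjamini-Hochberg adjustment over all of them and a threshold of 0.05. It was tested on simulated data. DESeq2 1.42.0 was an alternative. The exact permutation tests are two-sided, with a pseudocount of 0.1 FPKM. No 2 libraries were identical.

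Named genes are all constant genes, the leading V, J and D segments and the members with the smallest adjusted P. *Ighv11-2*, *Ighv12-3*, *Igkv12-89*, *Igkv14-126* and the examples from lists were named after their values were seen. The members and lists were chosen with earlier results of these data known. Promoters of the members were not used here. Results of the recombination list are not reported here.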

Additional observations from a re-analysis of the deposited data

Results flagged for a closer look

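Of 42 groups of 5 or 6 libraries of one tissue, 17 held a library set far apart by Dixon's criterion, where chance gives about 1 in 20. Male colon replicate 1 was apart in IgA share (67.8%) and in *Ighd* (31.2 FPKM), *Ighg1* (20.4), *Ighg2b* (23.6), *Ighg3* (7.42), *Ighm* (96.4), *Iglc2* (38.4) and *Iglc3* (55.9 FPKM). Female heart replicate 3 was apart in the summed constant level (799 FPKM) and in *Igha* (1.81 FPKM), *Ighd* (7.83), *Ighg3* (1.03), *Ighm* (213), *Igkc* (501), *Iglc1* (15.7), *Iglc2* (29.6) and *Iglc3* (27.3 FPKM). No brain or cerebellum library was apart. These values are not independent, since they come from 2 libraries.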

How the results depend on the processing

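The difference in summed constant level kept its direction and its side of the threshold under every alternative, from 5.77 to 6.15 with libraries left out. In colon, 163 to 183 members were higher with 1 library left out, and 134 by DESeq2. The comparison of male with female colon depended most on the choices made. Members higher in males numbered 0 to 3 and members lower 0 to 1 with 1 library left out. The counts were 5 and 1 without the filter and 7 and 1 in a fit of colon libraries only. With the library code block 0 were higher. No group of that block holds both sexes, so its counts between the sexes or gonads cannot set code apart from sex. Of 8 sums by class and chain, which are not member counts, 0 were higher. The IgA share difference ran from −11.5 to 1.49 percentage points, and its sign turned without male colon replicate 1. Members higher in ovary numbered 9 to 16 with 1 library left out and 5 with the library code block. Members higher in heart numbered 11 to 31. The median SD of members was 1.29 with a prior count of 0.5. The cause was not tested in any of these. The next counts cover only some of the named members, not all members called. Over these genes and the alternatives, calls were kept 1026 times and lost 23 times for colon. Between the sexes they were kept 24 and lost 15 times. Between the gonads they were kept 117 and lost 15 times, and for heart 181 and 3 times. In these genes 0 calls reversed.

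Replicate numbers did not pair the libraries: correlations were above 0.1 in 5 of 126 pairs of libraries with the same number, in 0 of the 56 of one sex and in 1 of the 3 of male and female colon (highest 0.121). With the replicate number as a block, 174 members were higher in colon, 2 in male colon, 17 in ovary and 31 in heart. The search for the octamer and the heptamer in promoters was not run, as 0 of the 264 members were in the promoter table used here. The spreads of constant genes and the list counts without male colon replicate 1 or female heart replicate 3 were chosen after seeing the data. Few counts limit what can be read of D and J segments and of most members outside colon. Exact permutation tests of 3 against 3 libraries cannot go below 0.1.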

Other observations

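The 158 V pseudogenes of the immunoglobulin loci, which the biotype rule leaves out, had 110 counts in the 6 colon libraries together, 8 to 43 in each, whereas the V genes had 62426 there. Female heart replicate 3 had 46 such counts, and the highest library outside colon and that library had 73.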
